A study of Homo sapiens with 12 samples.

Results

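Antisense noncoding RNAs are transcripts made from the strand opposite a neighbouring gene, and many are named after that gene with the ending -AS and a number. The antisense RNAs described here are all genes of the deposited table whose symbol ends in this way and whose mean over the 12 libraries was at least 20 normalized counts. Of 22148 genes in the table, 743 carry such a name and 187 of them reached the mean, while 556 lay below it. The 187 entries stand for 186 symbols, because ASMTL-AS1 is listed for both its X and its Y copy with the same values and is therefore counted 2 times in every count of antisense RNAs. The members just inside the limit were PTOV1-AS2 and SCUBE3-AS1, each with a mean of 20.08, and the genes just outside were TMEM44-AS1 with 19.67 and ANXA2R-AS1 with 19.58.

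The RNA came from HepG2, a human liver cancer cell line grown as 1 cell type in culture. Cells were transfected with a control siRNA (si-NC) or with siRNA against CPSF6 (si-CPSF6), grown for 48 h and then given actinomycin D at 5 µg/ml, a drug that blocks transcription, for 0, 3 or 6 h. Each of the 6 groups has 2 biological replicates, and all groups share the transfection and the HepG2 background. The study asks how silencing CPSF6 alters the stability of RNA, and the labels describe neither the si-NC reagent nor any rescue.

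CPSF6 is a subunit of cleavage factor Im, a complex that binds UGUA elements near polyadenylation sites and influences which site of a pre-mRNA is used. Many antisense RNAs start near the promoter of a protein-coding gene and run in the opposite direction, others begin inside or beyond the gene, and they are in general less abundant than mRNAs. Antisense and promoter-derived RNAs are known substrates of the nuclear exosome, an RNA-degrading complex, and their survival is known to be tied to how their 3′ ends are made.

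CPSF6 itself stood at 2147 and 2082 normalized counts in the si-NC libraries at 0 h and at 768 and 718 in the si-CPSF6 libraries. At 6 h it stood at 3469 and 3443 in si-NC and at 810 and 732 in si-CPSF6, so that the arms did not overlap at either time. Depth, read from the spacing of the deposited values, was 21753500 to 30281700 reads per library, and the antisense RNAs together took a small share of the counts. Hepatocyte markers were abundant, with albumin (ALB) at 4060 to 5424 TPM (a level corrected for transcript length). A list of 14 markers for other cell types (stromal, endothelial, immune) had 5 genes with no row. The endothelial marker VWF was at 0 in 6 libraries, and most of the summed level of the list was lysozyme (LYZ), at 244 to 956 TPM. Others were present in every library: CD68 at 18.5 to 39.8 TPM, ACTA2 at 10.1 to 35.3, PDGFRB at 2.01 to 10.97 and CD14 at 1.23 to 6.82. COL1A1, PECAM1 and CDH5 had means of 0.36, 0.47 and 0.04 TPM. The sum was 426.5 to 569.7 TPM in si-NC and 292.4 to 426.6 TPM in si-CPSF6 at 0 h, 493.3 to 657.2 and 325.6 to 490 TPM at 3 h, and 745.1 to 1029 and 372.2 to 554.3 TPM at 6 h. Over all times the arms overlapped, but at 3 and 6 h every si-CPSF6 library was lower, and in si-NC the sum was higher at 6 h than at 0 h. The part of the sum in the silencing and the time results was not tested. In bulk RNA, fewer cells of a type and less RNA per cell cannot be told apart.

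The antisense RNAs were a low-abundance group. Their median of the mean normalized count was 58.3, against 520 over the 12939 genes tested, 52 of them reached a mean of 100 and 2 (FGD5-AS1 and OIP5-AS1) a mean of 1000. Per length, the median level was 1.97 TPM, and 46 of the 187 were under 1 TPM. The highest levels per length were those of SVIL-AS1 with 37.9 TPM, OIP5-AS1 with 33.1 TPM and FGD5-AS1 with 32.4 TPM. A sense gene of the same root symbol was in the table for 178 of the antisense RNAs and reached the mean of 20 for 148. In these 148 pairs the sense gene had a median of 8.02 TPM, the median ratio of sense to antisense level was 5.94, and the antisense RNA was the higher of the pair in 32.

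By GENCODE release 29 coordinates on GRCh38, the build of the files, the antisense RNAs lay on 24 chromosomes and none lay on the strand of its root gene. A head-to-head arrangement held for 89, with a median of 595 bases between the starts and 64 within 1000 bases. Here the starts lie within 5000 bases on opposite strands and the antisense RNA is not inside its sense gene. Pairs that overlap at their starts were not set apart from pairs that point away from each other. Another 42 faced their sense gene tail to tail, 24 lay inside it, 23 had another arrangement and 9 had no sense gene in the table. GENCODE lists 141 as antisense, 23 as processed transcript and 16 as lincRNA. Overlap limits what the counts can show: 173 overlapped a gene on the opposite strand, and 148 shared exonic bases with one, although only 11 did so over more than 50% of their exonic length. On their own strand 53 overlapped another gene. The library kit keeps strand, but whether the reads were counted by strand is not given in the sources used here, so counts of overlapping genes are uncertain and reads of an antisense RNA and its sense gene may have been mixed.

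Windows of 250 bases before to 50 after the transcription start were found in RefSeq (GRCh38.p14) for 151 antisense RNAs, and 28 of these windows overlapped the window of the sense gene itself. The stretch between the RefSeq starts of such a pair is short enough to print. It is shown for 3 antisense RNAs that fell when CPSF6 was silenced and for ELF3-AS1, which rose, 5′ to 3′ on the strand of the antisense RNA with CG dinucleotides in capitals. Their log2 changes averaged over the times were -1.21 for TPT1-AS1, -1.24 for SSTR5-AS1, -0.38 for UBAC2-AS1 and 0.65 for ELF3-AS1. The stretch of TPT1-AS1 lies at chr13:45341184-45341344 on the plus strand, that of SSTR5-AS1 at chr16:1078732-1078825 on the minus strand, UBAC2-AS1 at chr13:99200758-99200853 on the minus strand and ELF3-AS1 at chr1:202010354-202010586 on the minus strand.
TPT1-AS1: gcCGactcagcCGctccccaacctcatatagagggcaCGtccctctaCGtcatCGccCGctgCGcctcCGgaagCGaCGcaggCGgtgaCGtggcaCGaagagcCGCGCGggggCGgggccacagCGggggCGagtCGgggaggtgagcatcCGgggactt
SSTR5-AS1: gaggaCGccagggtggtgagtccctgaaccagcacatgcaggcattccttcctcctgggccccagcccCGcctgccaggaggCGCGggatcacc
UBAC2-AS1: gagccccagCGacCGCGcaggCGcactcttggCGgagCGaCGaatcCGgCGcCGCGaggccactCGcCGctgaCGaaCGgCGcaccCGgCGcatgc
ELF3-AS1: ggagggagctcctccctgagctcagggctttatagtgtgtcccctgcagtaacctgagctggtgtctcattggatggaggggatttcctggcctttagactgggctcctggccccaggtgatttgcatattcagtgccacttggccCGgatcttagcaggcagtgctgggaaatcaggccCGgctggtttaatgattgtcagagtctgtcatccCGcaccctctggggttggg
The TPT1-AS1 stretch holds 21 CG dinucleotides in 161 bases and the UBAC2-AS1 stretch 18 in 96, while the SSTR5-AS1 stretch, also of an antisense RNA that fell, holds 4 in 94 and the ELF3-AS1 stretch 3 in 233. The hexamer TATAAA, searched on both strands, is in the ELF3-AS1 stretch and in none of the other three. Over the whole windows it was present in 7 of 151 antisense RNAs (4.64%), against 5.24% of the genes tested and 11.95% of all RefSeq promoters, and the median content of G and C was 63.7% for the antisense RNAs and 65.3% for the genes tested.

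The last 60 bases are shown, because CPSF6 acts where polyadenylation sites are chosen, from GENCODE 29 for 4 antisense RNAs that fell and 2 that rose, 5′ to 3′, with the polyadenylation hexamer AATAAA in capitals.
TMEM51-AS1: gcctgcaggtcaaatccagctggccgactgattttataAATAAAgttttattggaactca
TPT1-AS1: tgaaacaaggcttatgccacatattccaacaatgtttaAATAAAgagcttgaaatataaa
WAC-AS1: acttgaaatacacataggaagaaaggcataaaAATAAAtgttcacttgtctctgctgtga
WARS2-AS1: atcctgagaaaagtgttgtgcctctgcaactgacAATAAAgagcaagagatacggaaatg
DSP-AS1: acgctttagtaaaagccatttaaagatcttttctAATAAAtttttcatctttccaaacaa
ELF3-AS1: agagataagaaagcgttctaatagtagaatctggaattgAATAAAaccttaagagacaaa
Searched on the transcript strand in the last 40 bases of the annotated transcripts, AATAAA was present in 86 of 186 antisense RNAs (46.2%) and in 56.95% of the genes tested. With ATTAAA added, the shares were 54.8% and 70.4%. TGTA, the DNA form of the element bound by cleavage factor Im, was in the last 100 bases of 36.02% of antisense RNAs and of 50.8% of the genes tested. Among the antisense RNAs that fell in the average over the times AATAAA was present in 45 of 85 (52.9%), among those that rose in 11 of 31 (35.5%) and among those that did not pass in 30 of 70 (42.9%), with ASMTL-AS1 counted here as 1 transcript. TGTA was present in 32 of the 85 (37.65%), 11 of the 31 (35.48%) and 24 of the 70 (34.29%). A match is only a string in an annotated end, and the ends used in these cells were not measured.

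More antisense RNAs were lower than higher when CPSF6 was silenced. Averaged over the 3 times, 85 of the 187 fell (45.5%) and 32 rose (17.1%) at an adjusted p below 0.05, where 35.4% of all genes tested fell and 34.4% rose. Their median change was -0.30 on the log2 scale, against -0.01 over all genes tested. Before actinomycin D (0 h), 47 fell and 9 rose, against 21.1% and 21.8% of all genes, and the median change was -0.28 for the antisense RNAs and 0.00 for all genes. The rise at 0 h was the less certain count, since 14 rose and 57 fell with the replicate number as a block, against 25.9% and 24.7% of all genes.

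The direction was also visible without a test. In 55 antisense RNAs (29.4%) both si-CPSF6 libraries lay below both si-NC libraries at each of the 3 times, against 22.7% of all genes tested. The opposite order, both si-CPSF6 libraries above at each time, was seen in 20 (10.7%), against 21.1% of all genes. For the 134 antisense RNAs that overlapped no gene on their own strand the shares were 24.6% below and 11.2% above. The 39 that shared no exonic base with a gene on the other strand had 30.8% below and 7.7% above. Intergenic noncoding RNAs with LINC symbols, of which 105 reached the same mean, had 36 lower (34.3%) and 28 higher (26.7%) in the average, with a median change of -0.13. Genes of similar abundance, with means of 20 to 200, had 32.1% lower and 26.2% higher and a median of -0.06, and the 159 antisense RNAs in that range had 72 lower and 22 higher and a median of -0.31. In the average, 54 of these 134 fell and 24 rose, and 20 of these 39 fell and 6 rose, against 35.4% and 34.4% of all genes. The share of the 134 that fell lay between that of all genes and that of all antisense RNAs.

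**Figure D1:**
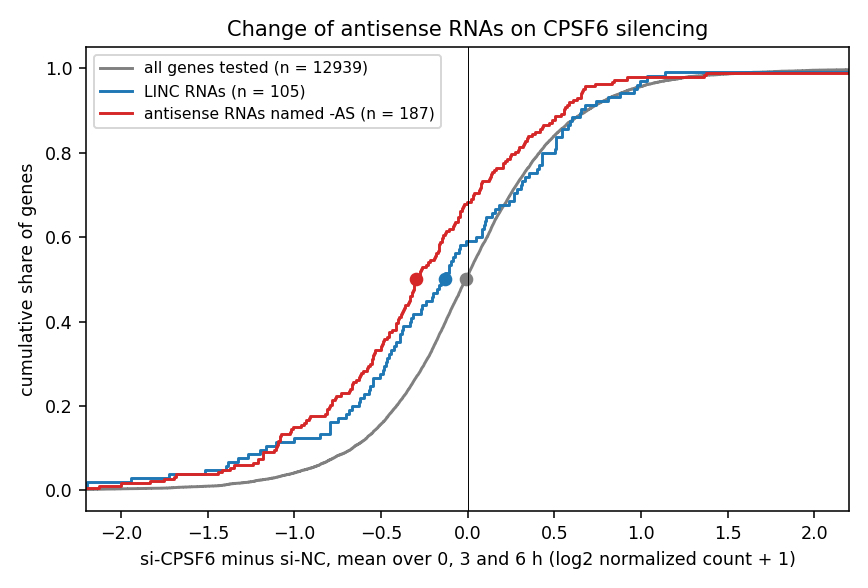
Cumulative share of genes (vertical axis) by the log2 change of the normalized count, si-CPSF6 minus si-NC averaged over 0, 3 and 6 h (horizontal axis), for 187 antisense RNAs, 105 LINC RNAs and 12939 genes tested, with a point at each median. The antisense curve lies to the left, with its median at -0.30 against -0.13 for LINC RNAs and -0.01 for all genes.

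The table of TPM gave a smaller excess. Of the 141 antisense RNAs with a mean of at least 1 TPM, 46 fell and 32 rose in the average, against 27.1% and 35.7% of 12188 genes, and the median change of the TPM was -0.16 against 0.05. Higher calls were thus 27.4% of the antisense calls in normalized counts and 41.0% in TPM. The normalized count follows the length of the transcripts counted, and the ratio of count to TPM is an apparent length. In si-CPSF6 against si-NC it was shorter by more than 0.5 on the log2 scale in 13 of the 187 antisense RNAs (6.95%) and in 389 of 12895 genes overall (3.02%). Of the 13, 9 were among those whose count fell, but the count enters both measures, so this split is no separate evidence.

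The 2 antisense RNAs with the highest counts were lower in every si-CPSF6 group, but this was a difference in counts and not in TPM. OIP5-AS1, also known as cyrano and conserved among vertebrates (chromosome 15, 41283990 to 41309737, plus strand), had 1886 and 1764 normalized counts in si-NC at 0 h and 1363 and 1347 in si-CPSF6. At 6 h it had 3766 and 4098 in si-NC and 2346 and 2552 in si-CPSF6. The arms did not overlap at any time, and the average fell by 0.49 ± 0.05 (SE) on the log2 scale, a 1.402-fold drop (adjusted p = 1.7e-07). In TPM the sign turned, with a change of 0.24 (adjusted p = 0.0208), and the apparent length of OIP5-AS1 was shorter by 0.64 on the log2 scale. FGD5-AS1 (chromosome 3, 14920347 to 14948424, minus strand) had 2001 and 1977 in si-NC against 1551 and 1679 in si-CPSF6 at 0 h, and 3641 and 3681 against 2956 and 2995 at 6 h. It fell by 0.31 ± 0.04 on the log2 scale (adjusted p = 3.7e-06), and by 0.09 in TPM, which did not pass (adjusted p = 0.13).

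The largest falls in the average among antisense RNAs with a mean of at least 50 were those of NPSR1-AS1, NNT-AS1, DBH-AS1 and TMEM51-AS1. NPSR1-AS1, named after a neuropeptide receptor gene (chromosome 7, 34346512 to 34871582, minus strand), had 138 and 121 counts in si-NC at 0 h and 32 and 28 in si-CPSF6. It kept to 14 to 34 counts in all si-CPSF6 libraries and to 69 to 138 in all si-NC libraries, a 4.01-fold difference in the average (log2 change -2.003 ± 0.17, adjusted p = 4.8e-08). In TPM the fall was -0.85 with an adjusted p of 0.106, so this call rests on the counts, and its apparent length was shorter by 1.04 on the log2 scale. NPSR1-AS1 overlaps the pseudogene NCAPD2P1 on its own strand.

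NNT-AS1 starts 538 bases from NNT, the gene of the mitochondrial transhydrogenase that makes NADPH. It had 199 and 171 counts in si-NC at 0 h and 51 and 75 in si-CPSF6, then 155 and 136 against 55 and 22 at 6 h. The average fell 3.37-fold (log2 change -1.75 ± 0.19, adjusted p = 1.4e-06), while NNT itself changed by -0.16 ± 0.04 (adjusted p = 0.00337, and 0.0954 in TPM). DBH-AS1, named after the dopamine beta-hydroxylase gene, had 115 and 124 counts in si-NC at 0 h and 32 and 59 in si-CPSF6, with no overlap at 3 or 6 h either, and fell by 1.44 ± 0.15 on the log2 scale (adjusted p = 6.8e-07). TMEM51-AS1 had 82 and 71 counts against 18 and 27 at 0 h and fell by 1.37 ± 0.18 in the average (adjusted p = 6.0e-06). TMEM51 itself had 575 and 495 counts against 423 and 476 at 0 h and did not pass in the average (0.13 ± 0.11, adjusted p = 0.284). Below the mean of 50 lay CCNT2-AS1, chosen after its values were seen as the largest fall of all, with 66 and 40 counts in si-NC and 7 and 10 in si-CPSF6 at 0 h and an average log2 change of -2.21 ± 0.27 (adjusted p = 3.2e-06, and 0.0915 in TPM).

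Several antisense RNAs with names known from the cancer literature fell as well. TPT1-AS1 shares its promoter stretch, printed above, with TPT1, one of the most abundant mRNAs of many cells. It had 186 and 171 counts in si-NC and 84 and 88 in si-CPSF6 at 0 h, then 397 and 379 against 140 and 146 at 6 h, and fell 2.32-fold in the average (log2 change -1.21 ± 0.08, adjusted p = 2.1e-09). In TPM the change was -0.45 (adjusted p = 0.00915), with an apparent length shorter by 0.68. TPT1 had 25411 and 23463 against 24158 and 21741 at 0 h, where the arms overlapped, and an average log2 change of -0.25 ± 0.05 (adjusted p = 0.000182).

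MCM3AP-AS1 had 59 and 46 counts in si-NC and 25 and 33 in si-CPSF6 at 0 h, and fell by 1.18 ± 0.18 in the average (adjusted p = 3.3e-05). EPB41L4A-AS1 fell by 0.46 ± 0.08 (adjusted p = 5.6e-05, and 0.259 in TPM), PSMA3-AS1 by 0.30 ± 0.08 (adjusted p = 0.00432) and FOXD2-AS1 by 0.57 ± 0.13 (adjusted p = 0.0014). THAP9-AS1, MAPKAPK5-AS1 and TMPO-AS1 did not pass, with log2 changes of 0.12 ± 0.07, 0.16 ± 0.10 and 0.07 ± 0.19. The first passed without si-NC 3 h replicate 2 (adjusted p = 0.0414) and with median-ratio scaling (0.0473), and the second without si-NC 6 h replicate 1 (0.0407) and in TPM (0.00232), in each case as a rise.

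Fewer antisense RNAs rose, and PSMD6-AS2 stood apart. It lies tail to tail with PSMD6, a subunit of the proteasome's regulatory particle (chromosome 3, 64004022 to 64012148, plus strand), and overlaps PSMD6-AS1 on its own strand. It had 7 and 1 counts in si-NC and 82 and 139 in si-CPSF6 at 0 h, 21 and 19 against 160 and 161 at 3 h, and 12 and 22 against 199 and 144 at 6 h. Every si-CPSF6 library was thus above every si-NC library. The average rose 12.7-fold on the log2(count + 1) scale (3.67 ± 0.31, adjusted p = 4.7e-07), which understates a change from so low a level. PSMD6 had 1416 and 1503 counts against 1326 and 1199 at 0 h and fell by 0.19 ± 0.05 in the average (adjusted p = 0.00288).

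SH3BP5-AS1 had 77 and 81 counts in si-NC and 136 and 153 in si-CPSF6 at 0 h, and rose by 0.83 ± 0.12 in the average (adjusted p = 1.4e-05). SVIL-AS1, tail to tail with the supervillin gene, had 615 and 638 against 727 and 725 at 0 h and 524 and 617 against 1064 and 1229 at 6 h, and rose by 0.63 ± 0.06 (adjusted p = 3.7e-07). SVIL itself had an average change of 0.00 ± 0.07 (adjusted p = 0.954). NUTM2A-AS1 rose by 0.49 ± 0.05 (adjusted p = 8.3e-07) and ELF3-AS1, whose sense gene encodes an epithelial transcription factor, by 0.65 ± 0.12 (adjusted p = 0.00024).

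DSP-AS1, head to head with the desmoplakin gene, rose by 0.67 ± 0.23 in the average (adjusted p = 0.030), but its replicates differed: at 0 h it had 154 and 75 counts in si-NC and 246 and 132 in si-CPSF6. The call was lost without any of 5 libraries. The adjusted p was 0.073 without si-NC 3 h replicate 2, 0.0548 without si-NC 6 h replicate 1 and 0.083 without si-NC 6 h replicate 2. It was 0.0698 without si-CPSF6 3 h replicate 1 and 0.0704 without si-CPSF6 6 h replicate 1.

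**Figure D2:**
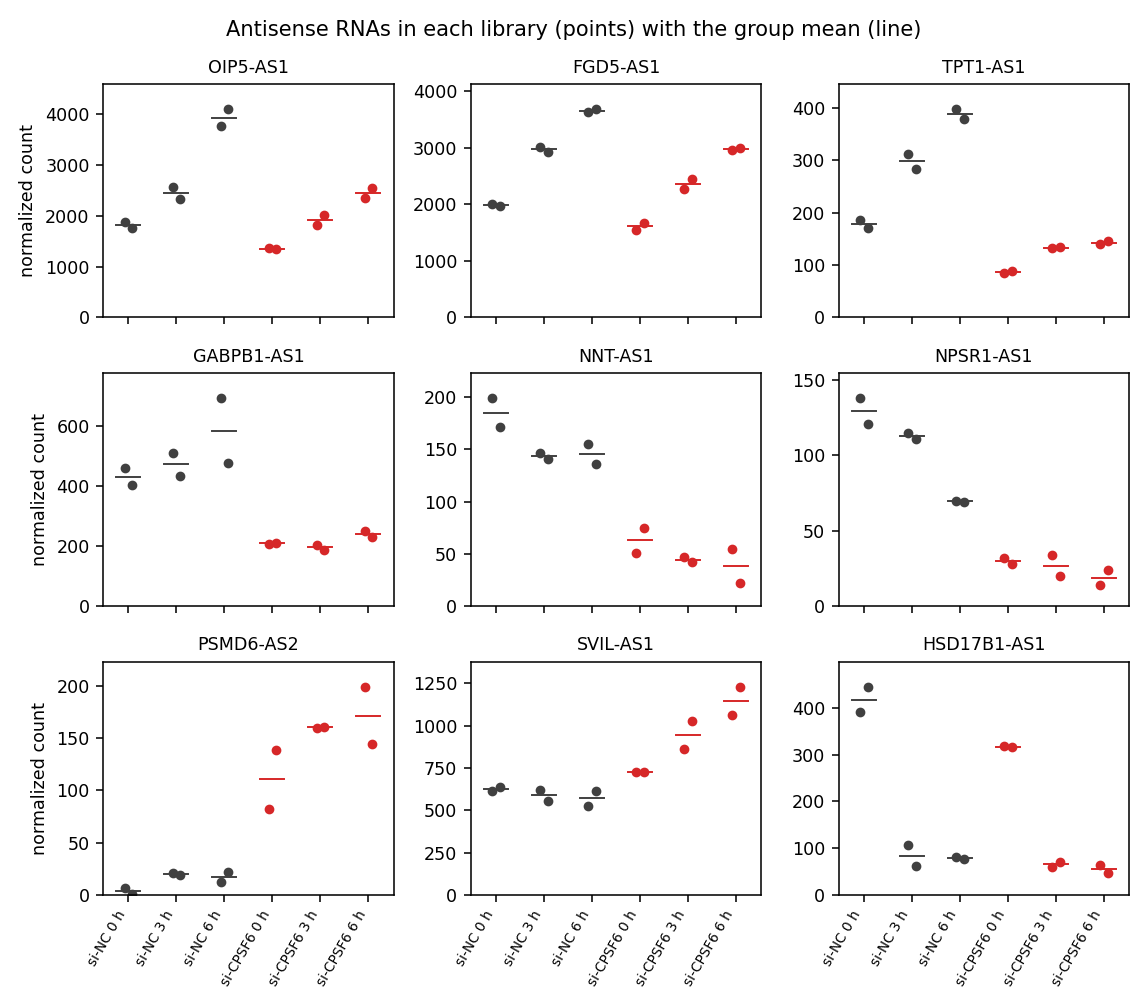
Normalized count (vertical axes, from 0) of 9 antisense RNAs in each library (points) and the mean of the 2 replicates (lines) in the 6 groups, with si-NC in grey and si-CPSF6 in red. OIP5-AS1, FGD5-AS1, TPT1-AS1, GABPB1-AS1, NNT-AS1 and NPSR1-AS1 are lower in si-CPSF6 at every time, PSMD6-AS2 is higher, SVIL-AS1 separates further with time, and HSD17B1-AS1 is lower at 3 and 6 h than at 0 h in both arms.

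The change of the antisense RNA and that of its sense gene went together only weakly. Over the 148 pairs with both members tested, the median change in the average was -0.31 for the antisense RNAs and 0.09 for the sense genes. Across pairs the correlation of the 2 changes was r = 0.06 (Spearman's rho 0.12), a description over pairs that share the same 12 libraries. Counted singly, 68 of the antisense RNAs fell and 23 rose, while 58 of the sense genes rose and 46 fell. Both members fell in 27 pairs and both rose in 11. In 24 pairs the antisense RNA fell and the sense gene rose, and in 6 the antisense RNA rose and the sense gene fell. In 23 pairs only the antisense RNA passed, in 36 only the sense gene, and in 21 neither.

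**Figure D3:**
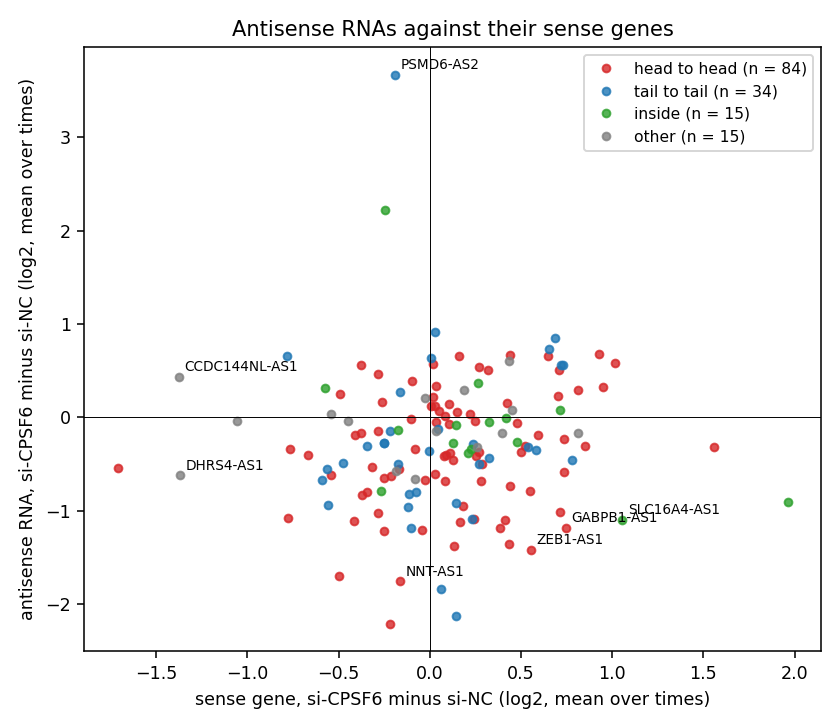
Log2 change of the antisense RNA (vertical axis) against that of its sense gene (horizontal axis), si-CPSF6 minus si-NC averaged over the times, for 148 pairs, coloured by arrangement. The points spread over all 4 quadrants with no visible line, and r over the pairs is 0.06.

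Among pairs called in opposite directions with an antisense mean of at least 50 there were 21, and in 16 of them the antisense RNA was the one that fell. Over the 148 pairs more antisense RNAs fell than rose (68 and 23) and more sense genes rose than fell (58 and 46). Such counts give opposite pairs of mostly this kind without any link within pairs. Whether the 21 pairs exceed that was not tested. The count depends on the scale. In TPM 20 of these pairs were tested and 14 still passed in opposite directions, 9 of them with a lower antisense RNA. TTC28-AS1 changed sign there (0.2252, adjusted p = 0.114), and the pairs of DLX6, NRSN2, SBF2, PXN and EMC3 lost a call. With spike-in scaling 14 of the 21 passed, 10 with a lower antisense RNA, and the pairs of ARRDC1, DLX6, GASK1B, SBF2, EMC3, WAC and UBAC2 lost a call. With each library left out 18 to 21 passed, and with the replicate block 21.

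GABPB1 encodes a subunit of GA-binding protein, a transcription factor of nuclear-encoded mitochondrial genes, and GABPB1-AS1 starts 449 bases from it (chromosome 15, 50354959 to 50372202, plus strand). GABPB1-AS1 had 460 and 403 counts in si-NC and 208 and 212 in si-CPSF6 at 0 h, where GABPB1 had 495 and 449 against 742 and 756. The antisense RNA was lower and the sense gene higher without overlap, and this held at 3 and 6 h. In the average GABPB1-AS1 fell by 1.18 ± 0.09 (adjusted p = 1.6e-08; in TPM by 1.04, adjusted p = 2.7e-05) and GABPB1 rose by 0.74 ± 0.07 (adjusted p = 1.4e-07). GABPB1-AS1 overlaps the microRNA gene MIR4712 on its own strand.

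SLC16A4-AS1 lies inside SLC16A4, a gene of the monocarboxylate transporter family, and shares no exonic base with it. The antisense RNA had 130 and 98 counts against 46 and 61 at 0 h, and the sense gene 35 and 42 against 90 and 76. Their average changes were -1.09 ± 0.13 (adjusted p = 2.2e-06) and 1.05 ± 0.15 (adjusted p = 1.2e-05). SLC16A4-AS1 overlaps LAMTOR5-AS1 on its own strand.

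With an antisense mean below 50, ZEB1-AS1 and ZEB1, whose product drives the epithelial to mesenchymal transition, showed the same arrangement of signs. ZEB1-AS1 had 70 and 71 counts against 27 and 28 at 0 h and ZEB1 had 305 and 288 against 464 and 445. In the average the antisense RNA fell by 1.42 ± 0.22 (adjusted p = 2.8e-05) and ZEB1 rose by 0.55 ± 0.07 (adjusted p = 2.2e-06), with no overlap of the arms for either at 0 h. WARS2-AS1, opposite the mitochondrial tryptophanyl-tRNA synthetase gene, changed by -1.09 ± 0.11 (adjusted p = 2.9e-07) and WARS2 by 0.41 ± 0.06 (adjusted p = 1.0e-05). WAC-AS1 and WAC, a regulator of histone ubiquitination, changed by -1.12 ± 0.13 (adjusted p = 1.5e-06) and 0.16 ± 0.06 (adjusted p = 0.0177). The call of WAC was lost with spike-in scaling (adjusted p = 0.303) and without si-NC 0 h replicate 2 (0.069), si-NC 3 h replicate 1 (0.059), si-CPSF6 0 h replicate 1 (0.0593) or si-CPSF6 6 h replicate 1 (0.0521). DDN-AS1 and the dendrin gene DDN changed by -1.01 ± 0.21 (adjusted p = 0.00068) and 0.72 ± 0.12 (adjusted p = 8.9e-05).

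In the other direction stood TRAF3IP2-AS1, with 68 and 70 counts against 97 and 94 at 0 h. It rose by 0.66 ± 0.10 in the average (adjusted p = 3.9e-05), and TRAF3IP2, an adaptor of interleukin receptor signalling, fell by 0.78 ± 0.13 (adjusted p = 7.4e-05). CCDC144NL-AS1 rose by 0.44 ± 0.07 (adjusted p = 3.6e-05), while CCDC144NL had 86 and 115 counts against 21 and 40 at 0 h and fell by 1.38 ± 0.17 (adjusted p = 4.4e-06). CCDC144NL-AS1 overlaps 5 other genes on its strand. SRP54-AS1, opposite a subunit gene of the signal recognition particle, rose by 0.56 ± 0.17 in the average (adjusted p = 0.0073) and SRP54 fell by 0.38 ± 0.04 (adjusted p = 1.4e-06). Its rise at 0 h alone (0.89 ± 0.29, adjusted p = 0.020) was lost without si-NC 0 h replicate 1 (adjusted p = 0.275), si-CPSF6 0 h replicate 1 (0.0924) or si-CPSF6 0 h replicate 2 (0.0683), with spike-in scaling (0.0511) and in TPM (0.0617).

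**Figure D4:**
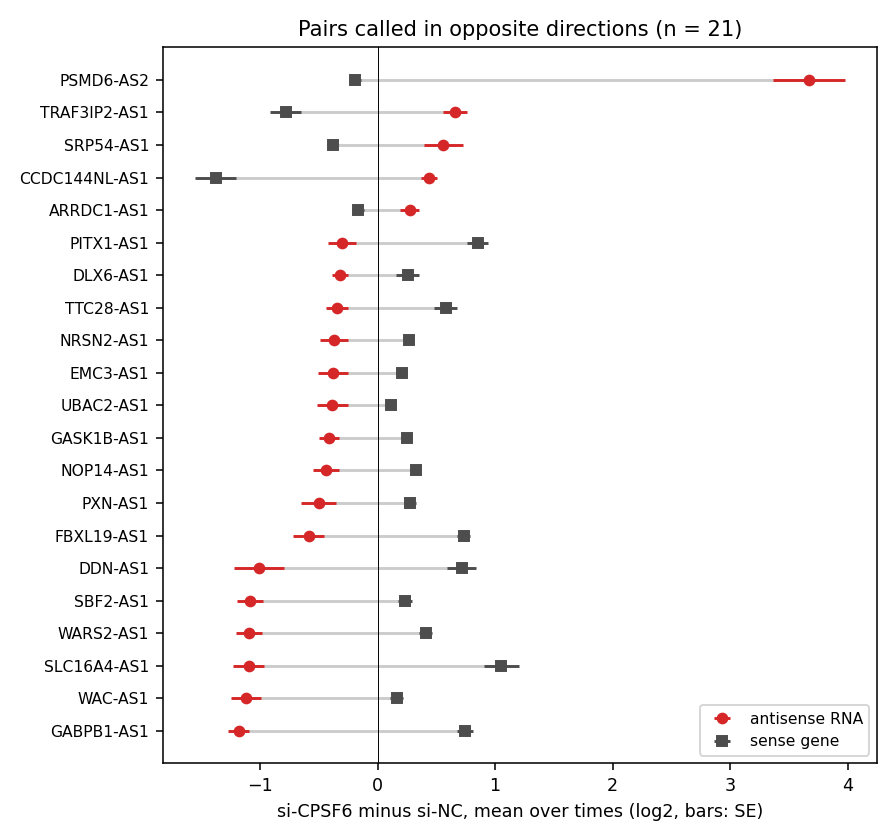
Log2 change (horizontal axis, with SE) of the antisense RNA (red circles) and of the sense gene (grey squares), si-CPSF6 minus si-NC averaged over the times, for the 21 pairs that passed in opposite directions with an antisense mean of at least 50. In the lower 16 pairs the antisense RNA fell in the deposited counts, and in the upper 5 it rose. In TPM and with spike-in scaling 14 of the pairs still passed in opposite directions.

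Among the 27 pairs that fell together were those of DHRS4 and OIP5. DHRS4, a dehydrogenase of retinoid metabolism, had 873 and 888 counts against 341 and 392 at 0 h and fell by 1.37 ± 0.07 (adjusted p = 3.9e-10). DHRS4-AS1 had 489 and 577 against 347 and 355 and fell by 0.62 ± 0.06 (adjusted p = 4.8e-07). OIP5, which encodes a centromere protein, fell by 0.48 ± 0.07 (adjusted p = 2.1e-05), next to a change of -0.49 in the counts of OIP5-AS1.

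Arrangement gave similar medians for the main classes. Against 35.4% of all genes lower and 34.4% higher in the average, 45 of 89 head-to-head antisense RNAs fell (50.6%) and 10 rose (11.2%), with a median of -0.34, and their sense genes had a median of 0.11. Of the 42 tail-to-tail antisense RNAs 20 fell (47.6%) and 12 rose (28.6%), with a median of -0.33. Among the 24 inside their sense gene 8 fell (33.3%) and 3 rose (12.5%; median -0.19), and among the 23 with another arrangement 6 fell (26.1%) and 5 rose (21.7%; median -0.04). The 9 with no sense gene in the table had the lowest median of the classes, -0.55, with 6 lower and 2 higher. Differences between the classes were not tested.

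On the deposited scale more antisense RNAs rose than fell under actinomycin D, and so did more of all genes tested. Between 0 and 6 h in si-NC 86 rose and 21 fell, against 48.6% and 30.7% of all genes, and the median change was 0.51 against 0.31. In si-CPSF6 83 rose and 22 fell, against 49.8% and 27.6% of all genes, with medians of 0.49 and 0.35. In both arms a smaller share of the antisense RNAs than of all genes rose, and a smaller share fell. A rise after transcription is blocked depends on the scale, because the deposited counts are relative to the other RNAs in the library. The spike-in RNA was added to a fixed mass of total RNA, so scaling to it gives a level per mass and not per cell. On that scale 11 antisense RNAs rose and 71 fell in si-NC, against 10.2% and 57.7% of all genes, and 10 rose and 67 fell in si-CPSF6, against 5.83% and 52.4%. The medians were then -0.44 for the antisense RNAs and -0.65 for all genes in si-NC, and -0.35 and -0.50 in si-CPSF6. With median-ratio scaling 64 rose and 31 fell in si-NC, against 38.8% and 37.7% of all genes, and 47 rose and 35 fell in si-CPSF6, against 37.3% and 35.4%. The direction of the time change of the group is thus set by the scaling, whereas silencing gave more falls than rises with spike-in scaling too, with 86 lower and 26 higher in the average against 33.1% and 26.0% of all genes. Spike-in scaling moved the median of all genes at 0 h from 0.00 to -0.13.

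**Figure D5:**
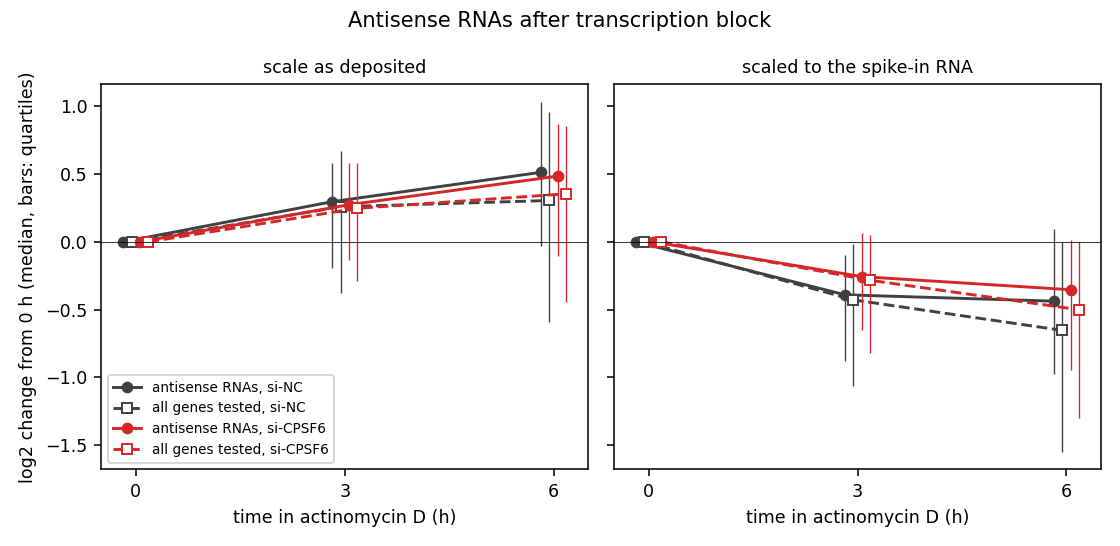
Median log2 change from 0 h (vertical axis, bars from the lower to the upper quartile over genes) at 3 and 6 h of actinomycin D (horizontal axis), for 187 antisense RNAs and all genes tested in si-NC (grey) and si-CPSF6 (red), as deposited (left) and scaled to the spike-in RNA (right). The medians are above 0 on the left and below 0 on the right, and at 6 h the antisense medians lie above those of all genes in both panels.

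The largest fall over 6 h was the same antisense RNA in both arms. HSD17B1-AS1, inside the gene of an estrogen-activating dehydrogenase, went from 391 and 445 counts at 0 h to 107 and 61 at 3 h and 81 and 77 at 6 h in si-NC. In si-CPSF6 it went from 318 and 317 to 60 and 71 and then to 64 and 48. The log2 changes to 6 h were -2.39 ± 0.23 in si-NC (adjusted p = 1.1e-07) and -2.50 ± 0.23 in si-CPSF6 (adjusted p = 8.3e-08), and 9.85% and 9.83% were left relative to the spike-in RNA. Its exons overlap those of HSD17B1 over 85.2% of their length, and HSD17B1 itself had 7 to 29 counts per library.

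BAZ1A-AS1, head to head with a chromatin remodeller gene, had 112 and 130 counts at 0 h and 38 and 41 at 6 h in si-NC, and 149 and 115 against 50 and 37 in si-CPSF6. Its changes were -1.59 ± 0.25 (adjusted p = 2.8e-05) and -1.58 ± 0.25 (adjusted p = 3.3e-05). EGFR-AS1, inside the gene of the epidermal growth factor receptor, fell from 115 and 124 to 46 and 23 in si-NC (-1.84 ± 0.30, adjusted p = 3.3e-05), and ZNF503-AS2 fell from 97 and 115 to 52 and 40 in si-CPSF6 (-1.19 ± 0.28, adjusted p = 0.0011).

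LBX2-AS1, opposite a homeobox gene, had replicates far apart, with 614 and 900 counts at 0 h and 170 and 163 at 6 h in si-NC (-2.15 ± 0.48, adjusted p = 0.0046). In si-CPSF6 it had 268 and 423 at 0 h and 94 and 215 at 6 h, with a change of -1.24 ± 0.48 at an adjusted p of 0.050 that passed the threshold only before rounding. That call was lost without either replicate of si-NC at 0 h (adjusted p = 0.0567 and 0.0564) or at 6 h (0.0785 and 0.0794). It was also lost without si-CPSF6 0 h replicate 2 (0.199) or si-CPSF6 6 h replicate 1 (0.242, with a change of -0.64), with no filter (0.0808), with a pseudocount of 0.1 (0.0508) and with only the groups compared (0.133).

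Some antisense RNAs gained against the spike-in RNA as well as on the deposited scale. CD27-AS1, named after a lymphocyte receptor gene, had 44 and 46 counts at 0 h and 158 and 135 at 6 h in si-NC, and 25 and 18 against 71 and 86 in si-CPSF6. The changes were 1.68 ± 0.26 (adjusted p = 1.9e-05) and 1.83 ± 0.26 (adjusted p = 8.7e-06), and 0.73 and 0.996 relative to the spike-in RNA (adjusted p = 0.0277 and 0.00339). Its change in TPM did not pass (adjusted p = 0.136 and 0.0568).

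FBXL19-AS1 went from 86 and 55 to 278 and 187 counts in si-NC (1.71 ± 0.23, adjusted p = 4.7e-06) and EXOC3-AS1 from 31 and 25 to 109 and 120 (2.0 ± 0.36, adjusted p = 0.00014). Relative to the spike-in RNA these changes were 0.76 (adjusted p = 0.0066) and 1.06 (adjusted p = 0.018). In si-CPSF6 the largest rises after CD27-AS1 were those of UBAC2-AS1 (1.64 ± 0.23, adjusted p = 9.2e-06), ZNF561-AS1 (1.63 ± 0.22, adjusted p = 7.5e-06) and PCBP1-AS1 (1.51 ± 0.11, adjusted p = 8.5e-09). Relative to the spike-in RNA they were 0.80, 0.80 and 0.65, with adjusted p-values of 0.0205, 0.0176 and 0.00077. PSMD6-AS2 also rose in si-NC on the deposited scale (2.11 ± 0.53, adjusted p = 0.0030), from 7 and 1 counts to 12 and 22, but did not pass relative to the spike-in RNA (1.33, adjusted p = 0.0968) or in TPM (0.81, adjusted p = 0.107). The change was 1.11 without si-NC 0 h replicate 2 and 3.11 without si-NC 0 h replicate 1, so its size rests on the 2 libraries at 0 h.

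The sense genes of these RNAs had time courses of their own. GABPB1 dropped from 495 and 449 to 128 and 149 counts in si-NC within 6 h (-1.76 ± 0.12, adjusted p = 1.8e-09). TMEM51 dropped from 575 and 495 to 47 and 56 (-3.35 ± 0.19, adjusted p = 2.1e-10), and TMEM51-AS1 did not pass (0.30 ± 0.31, adjusted p = 0.39). Over the 148 pairs in si-NC, 66 antisense RNAs rose and 18 fell, while 56 sense genes rose and 67 fell. The antisense RNA rose and the sense gene fell in 27, the reverse held in 6, both rose in 29 and both fell in 9. Whether these counts of pairs differ from what the single counts give was not tested. Relative to the spike-in RNA 55 antisense RNAs and 103 sense genes fell. Both fell in 44 pairs, and the antisense RNA rose while the sense gene fell in 1. The median change of the sense genes on that scale was -1.04 and that of their antisense RNAs -0.43.

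Few antisense RNAs passed for a 6 h response that differed between the arms. The difference of the 6 h change between the arms passed for 10 of 187, 5 in each direction. Of all genes tested 12.0% passed with a positive difference (si-CPSF6 minus si-NC) and 12.4% with a negative difference. With the replicate number as a block 13 and 9 passed, against 16.2% and 17.7%. The median of the mean count was 58.3 for the antisense RNAs and 520 over the genes tested. Its part in the lower share of calls was not tested, and a missing call does not show an equal response. SVIL-AS1 had the smallest adjusted p: it changed by -0.14 ± 0.11 in si-NC and by 0.65 ± 0.11 in si-CPSF6, a difference of 0.79 ± 0.16 (adjusted p = 0.0020), and 0.90 relative to the spike-in RNA (adjusted p = 0.0175). Its difference did not pass in TPM (0.59, adjusted p = 0.0812), and the changes within the arms depend on the scale. Relative to the spike-in RNA SVIL-AS1 fell by 1.10 in si-NC (adjusted p = 5.7e-07) and changed by -0.20 in si-CPSF6 (adjusted p = 0.342), and in TPM it fell by 0.72 in si-NC (adjusted p = 0.000908) and changed by -0.13 in si-CPSF6 (adjusted p = 0.443). With median-ratio scaling the change in si-NC was -0.41 (adjusted p = 0.0036). FBXL19-AS1 had the largest negative difference among those with a mean of at least 50, with 61 and 65 counts at 0 h and 103 and 92 at 6 h in si-CPSF6 and a difference of -1.09 ± 0.32 (adjusted p = 0.023). It was lost without either si-CPSF6 0 h replicate (adjusted p = 0.0552 and 0.0676), si-NC 0 h replicate 2 (0.119), si-NC 6 h replicate 1 (0.104) or si-CPSF6 6 h replicate 2 (0.0637), with spike-in scaling (0.0707) and in TPM (0.144).

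The machinery that removes or terminates antisense RNAs was read from a list of 43 genes of the nuclear exosome, its cofactors and the Integrator and termination factors, of which 42 were tested. In the average 12 rose (28.6%), 19 fell (45.2%) and 11 did not pass, where 34.4% of all genes rose and 35.4% fell, with a median of -0.07 against -0.01 over all genes. The exosome cofactor MPHOSPH6 had 631 and 643 counts in si-NC and 385 and 372 in si-CPSF6 at 0 h and fell by 1.099 ± 0.06 in the average (adjusted p = 3.0e-10). The noncanonical poly(A) polymerase TENT4B, which tags RNAs for the exosome, had 739 and 667 against 1236 and 1285 and rose by 0.92 ± 0.06 (adjusted p = 1.8e-09). Exosome subunits moved both ways: EXOSC3 rose by 1.05 ± 0.07 (adjusted p = 3.0e-09) and EXOSC4 by 1.02 ± 0.07 (adjusted p = 5.1e-09), while EXOSC9 fell by 0.65 and EXOSC10 by 0.39 (adjusted p = 1.4e-05 and 2.9e-07; these and the next were chosen after their values were seen). MTREX, the helicase of the nuclear exosome, fell by 0.49 (adjusted p = 8.1e-05). Whether any of these changes bears on the antisense RNAs was not tested.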

How the data were processed

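RNA of 12 HepG2 libraries was measured by directional mRNA sequencing with ERCC spike-in RNA added to 5 µg of total RNA, per the labels' protocols. The submitters' processing notes name STAR, RSEM and hg38. Not given in the sources used here are versions, annotation and strand setting. The deposited table of normalized counts holds a score, in which the authors scaled gene counts between libraries and rounded them to whole numbers, so tests for raw counts were not run. Totals were 19133288 to 33352246 per library, and scaling factors of 0.704 to 1.398 were read from the spacing of values. The deposited TPM, computed by the authors over the same entries, served as an alternative.

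Groups were compared with limma 3.58.1 (R 4.3.3) with its trend and robust options, on log2(normalized count + 1). All 12 libraries entered 1 fit with 6 residual degrees of freedom, over 12939 genes with a mean of at least 20. P-values were adjusted by Benjamini-Hochberg within each comparison (threshold 0.05), and fold changes are on the log2(count + 1) scale. The 5 comparisons were the effect of si-CPSF6 at 0 h, its average over the 3 times, the change from 0 to 6 h within si-NC, the same within si-CPSF6, and the difference between these time changes. They share libraries and are not independent. P-values measure the spread between the 2 biological replicates. Tests were checked on simulated data.

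Symbols matched 22069 of 22148 identifiers. The sense gene is the gene of the root symbol, and positions come from GENCODE 29. The members and lists were chosen with earlier results of these data known. Named antisense RNAs are, per comparison, the 4 largest rises and 4 largest falls with a mean of at least 50, the 6 highest means, a list of known names, pairs called in opposite directions with that mean, and the members nearest the limit. Others are said to be chosen after seeing values, except SSTR5-AS1 and ELF3-AS1, which were chosen for their sequences after their values were seen. Not every gene the rule takes is described, and 1 of the known names is not reported here.

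Replicates correlated at 0.991 to 0.993 and differed beyond counting noise, so none was a copy. Libraries with the same replicate number deviated together: across 15 pairs of groups the correlation of deviations from the group means was 0.108 to 0.236. The labels name no shared day, so this pairing is read from the values only. The main fit does not use it, and the p-values given without mention of the block ignore it. The fit with the replicate number as a block is an alternative. Alternatives were pseudocounts, filters, scaling, TPM, limma settings, the replicate block, only the groups compared, the sense gene by coordinates, and each library left out.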

Additional observations from a re-analysis of the deposited data

Results flagged for a closer look

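The difference of the 6 h change between the arms (si-CPSF6 minus si-NC, log2) passed the test of the difference itself, limma's interaction contrast, for 10 antisense RNAs. Lower in si-CPSF6 were BSG-AS1 with -1.275 (adjusted p = 0.042), FBXL19-AS1 with -1.094 (0.023), SLC16A1-AS1 with -0.9851 (0.026), C10orf95-AS1 with -0.6088 (0.028) and MAGI2-AS3 with -0.3994 (0.044). Higher were CCDC144NL-AS1 with 0.5957 (adjusted p = 0.017), SVIL-AS1 with 0.7941 (0.0020), FOXD2-AS1 with 0.9622 (0.042), EGFR-AS1 with 1.215 (0.046) and PARD6G-AS1 with 1.274 (0.025).

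Among the 8 of these with a mean of at least 50, the call was kept with every library left out in turn for SVIL-AS1. It was lost for 3 libraries in CCDC144NL-AS1, with adjusted p-values of 0.0113 to 0.0789 over the 12 fits, and for 5 in FBXL19-AS1 (0.00895 to 0.119) and in C10orf95-AS1 (0.0156 to 0.121). It was lost for 6 libraries in SLC16A1-AS1 (0.0145 to 0.0847), 8 in FOXD2-AS1 (0.0114 to 0.159), and 10 in MAGI2-AS3 (0.0423 to 0.168) and EGFR-AS1 (0.00588 to 0.184). EGFR-AS1 fell from 115 and 124 counts to 46 and 23 in si-NC and went from 83 and 54 to 43 and 43 in si-CPSF6. Under spike-in scaling 2 of the 8 passed, SVIL-AS1 (0.90, adjusted p = 0.0175) and EGFR-AS1 (1.32, adjusted p = 0.0372). In TPM 0 of the 8 passed in limma (6 at an unadjusted p under 0.05), with adjusted p-values from 0.0684 for C10orf95-AS1 to 0.561 for SLC16A1-AS1, and 0.0812 for SVIL-AS1.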

How the results depend on the processing

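Counts of antisense RNAs that moved by more than 1.5 times follow, as higher and lower where both moved. The share of all genes that passes can move with the setting too. Here and below, a count without that share shows only how it depends on the setting. With a mean of at least 100 (52 antisense RNAs) 2 and 19 passed at 0 h, 12 and 27 in the average, 29 and 8 over time in si-NC, 30 and 8 in si-CPSF6, and 3 and 3 for the difference between arms. With fewer genes tested, fewer can pass. At 0 h the higher count was 14 with median-ratio scaling, 15 without trend or robust settings and 14 with the replicate block, and the lower count was 27 in TPM. In TPM the lower count in the average was 46. Over time with spike-in scaling 11 and 71 passed in si-NC (10.2% and 57.7% of all genes) and 10 and 67 in si-CPSF6 (5.83% and 52.4%). With median-ratio scaling 47 and 35 passed over time in si-CPSF6 (37.3% and 35.4% of all genes). In TPM, 17 and 46 passed over time in si-NC and 8 and 40 in si-CPSF6. Only genes with a mean of at least 1 TPM were tested there. For the difference between arms 3 and 3 passed with no filter, 2 and 0 with spike-in scaling (6 lower at an unadjusted p under 0.05 in limma), 2 and 2 in TPM, and 13 and 9 with the replicate block. The lower count was 10 without trend or robust settings, and the higher count 3 with only the groups compared. Pairs moving in the same and in opposite directions at 0 h were 8 and 7, and 5 and 4 with spike-in scaling. The cause of the moves other than the filter was not tested. The block added the calls of the sense genes EGFR (0.23, adjusted p = 0.0487) and ZNF561 (0.24, adjusted p = 0.00612) in the average and changed no other single call.

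With each library left out, the counts ranged from 7 to 10 higher and 33 to 51 lower at 0 h, 27 to 36 and 77 to 86 in the average, 63 to 88 and 14 to 22 in si-NC over time, and 64 to 83 and 13 to 22 in si-CPSF6, where 13 came without si-CPSF6 0 h replicate 2. For the difference the ranges were 2 to 8 and 0 to 6. The lower count was 0 without si-NC 0 h replicate 2, si-NC 6 h replicate 1 or si-CPSF6 0 h replicate 1 (14, 12 and 18 at an unadjusted p under 0.05 in limma). The single results followed were 136: named antisense RNAs, their sense genes and genes of the turnover list. Of these 115 kept their direction and side of the threshold with each library left out, 114 with spike-in scaling and 134 with the replicate block, and 92 of 126 did so in TPM. In TPM OIP5-AS1 turned to 0.24, TTC28-AS1 to 0.2252 and MAPKAPK5 to 0.0011 in the average, and the time change of GABPB1-AS1 in si-NC to -0.3819 and that of SVIL-AS1 in si-CPSF6 to -0.1323. With spike-in scaling the last 2 were -0.5455 and -0.2044. Many antisense RNAs have under 60 counts, which limits the precision of single values.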
